A study of Mus musculus with 6 samples.

Results

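Of the 29955 gene names in the deposited table, 10 were followed here: genes for peptides, enzymes and receptors through which endothelium sets the tone of the vessel wall. They were chosen by name (Edn1, Ece1, Ednrb, Nos3, Nppb, Ptgs1, Ptgs2, Ptgis, Ace and Adm), and all 10 were found. RNA came from MS-1 cells, a line of mouse pancreatic islet endothelium immortalised with SV40 large T antigen, so every value describes 1 line. The cells were transfected with a locked nucleic acid (LNA) inhibitor of miR-31, an LNA inhibitor of miR-27 or the LNA labelled NC, taken here as the negative control. Each transfection was kept for 72 h with 1 ng/ml TGF-β2 or without it, which gives 6 groups: miR-31 inhibitor with TGF-β2, miR-27 inhibitor with TGF-β2, negative control with TGF-β2, and the same 3 transfections without TGF-β2. All 6 groups share a transfected LNA, and no untransfected cells were analysed here. Each group is 1 library. Nothing in the labels tells if these came from independent cultures, so the error behind each p-value is library-to-library spread and may be technical.

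Endothelial cells relax the muscle layer of a vessel with nitric oxide, made by the synthase that Nos3 encodes, and with prostacyclin, made from a cyclooxygenase product by the enzyme that Ptgis encodes. They constrict it with endothelin, a peptide cut from the Edn1 precursor by the protease that Ece1 encodes. TGF-β is known to turn endothelial cells toward a mesenchymal state and to activate Edn1 transcription through Smad proteins. The question here was how the RNA of both sides of this balance differed with TGF-β2, and whether either inhibitor moved it.

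The inhibitors bind microRNAs whose seed, bases 2 to 8, pairs with target RNAs. The labels name the microRNAs without the arm, and the mature arms shown are the ones usually taken as the guide strands, from RefSeq (GRCm38.p6), with the seed in capitals. Both miR-27 paralogues share 1 seed and differ from miR-31 in it.
miR-31-5p: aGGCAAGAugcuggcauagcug
miR-27a-3p: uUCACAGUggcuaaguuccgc
miR-27b-3p: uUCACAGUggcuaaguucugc
In the longest 3′ UTR of each of the 10 genes in GENCODE vM21, the 7 bases that pair with the miR-31 seed occurred once, in Edn1, and those for the miR-27 seed occurred in none. Among 9550 tested genes with an annotated 3′ UTR, 13.3% held the miR-31 match and 17.9% the miR-27 match, so 1 of 10 and 0 of 10 do not set these genes apart. The Edn1 match starts at base 233 of a 3′ UTR of 1111 bases (GRCm38, chr13:42307112-42307118, plus strand), and is shown with its flanks, the match in capitals.
Edn1 3′ UTR: ctttctgcctctTCTTGCCggttgggaatg

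Levels are in FPKM, which divides the fragments of a transcript by its length and by the size of the library, so they can be set between genes. Differences and tests are on the scale log2(FPKM + 1), from limma fitted to the 11816 genes that averaged 1 FPKM or more, and a gene passed at a Benjamini-Hochberg adjusted p under 0.05 over those genes. Of the 10 genes, 9 met that filter, and Ednrb did not. From 11680 to 11791 genes reached 1 FPKM in a library. The numbers of reads are unknown, so no counting error can be given.

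The endothelial label held: all 8 endothelial markers (Pecam1, Cdh5, Kdr, Tek, Tie1, Emcn, Esam and Eng) passed the filter, with a summed level of 1471 to 1495 FPKM with TGF-β2 and 1341 to 1442 without. Pecam1 and Emcn make up most of that sum, and singly 3 of the 8 fell with TGF-β2 and 2 rose (median -0.0398). Kdr, a receptor for vascular endothelial growth factor, fell by 0.80, to 56.8% of its level without TGF-β2, Esam fell by 0.39 and Tie1 by 0.33, while Emcn rose by 0.79 and Eng by 0.53. Of 7 pancreas markers none met the filter, the highest value being 0.0461 FPKM. Of 6 leukocyte markers 2 met the filter, Cd68, which fell by 0.65, and Lyz2, which rose by 0.21. The list summed to 107 to 137 FPKM with TGF-β2 and 170 to 212 without, nearly all of it Cd68, and Ptprc was at or under 0.0257 FPKM. The 9 smooth muscle and pericyte markers, of which 4 passed the filter, summed to 31.8 to 39.5 FPKM with TGF-β2 and 27.2 to 28.9 without. Singly, 3 of those 4 rose with TGF-β2 and 1 fell (median 0.779). The 5 fibroblast markers summed to 15.7 to 19.8 FPKM with TGF-β2 and 1.88 to 2.52 without, nearly all of it Pdgfra. The epithelial list, led by Krt18 (-1.72), summed to 12.9 to 16.6 FPKM with TGF-β2 and 38.7 to 54.5 without. Epcam was listed at 0, but so was Eef1a1, which every cell uses, so a 0 in this table need not mean that a gene is silent. The part of these markers in the results below was not tested. In such bulk RNA, fewer cells expressing a gene and less RNA per cell cannot be told apart.

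The miR-31 inhibitor library with TGF-β2 stood apart in the median of 15 genes of the amino acid and unfolded protein stress responses. Their median difference from the negative control was 1.44 with TGF-β2 and 0.302 without it, on the log2 scale. With the miR-27 inhibitor the same medians were 0.485 and 0.364. TGF-β2 results are therefore also given without that library. Its partner without TGF-β2 then adds nothing, so the other two transfections set the estimate.

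With TGF-β2, the vasoconstrictor precursor Edn1 rose and Nos3 fell, each in all 3 transfections, and the cyclooxygenase gene Ptgs1 rose while the natriuretic peptide gene Nppb fell to near the filter. In all, 3 of the 9 genes tested were called higher (Edn1, Ptgs1 and Ace) and 5 lower (Nos3, Nppb, Ece1, Ptgis and Adm). Ptgs2 did not pass. Of all 11816 genes tested, 22.7% were called higher and 27.5% lower, 50.2% in all, so a call by itself is common in these data and the sizes carry the description. The groups with and without TGF-β2 did not overlap for 6 of the 9, beside 58.4% of all genes tested (26.8% higher and 31.6% lower).

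**Figure D1:**
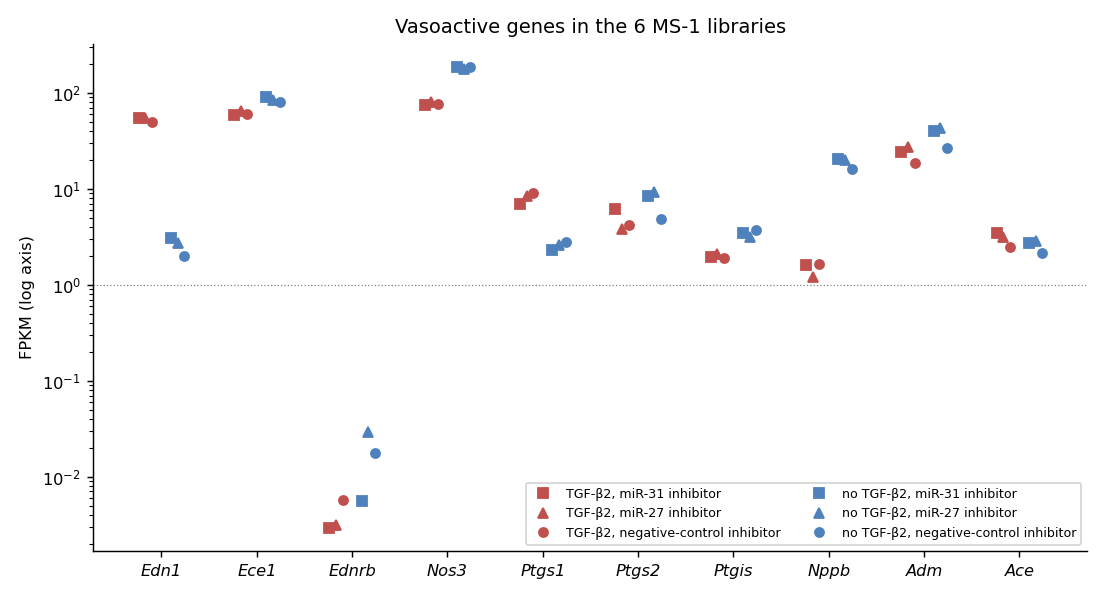
FPKM on a log axis for the 10 vasoactive genes in each library, with TGF-β2 in red on the left of each gene and without it in blue on the right, marker shapes giving the transfection. Edn1 sits at 50.1 to 55.2 FPKM with TGF-β2 and at 1.998 to 3.05 without, Nos3 and Nppb lie lower with TGF-β2, and Ednrb lies far below the dotted line at 1 FPKM in every library.

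Edn1 lies on chromosome 13 (mm9, chr13:42396639-42403358). It stood at 55.2 FPKM with the miR-31 inhibitor and TGF-β2, 54.1 with the miR-27 inhibitor and TGF-β2, and 50.1 with the negative control and TGF-β2, against 3.05, 2.70 and 1.998 FPKM in the same 3 transfections without TGF-β2. The groups lay far apart, and within each of them the negative control was the lowest. The mean was 53.1 ± 2.69 FPKM with TGF-β2 and 2.58 ± 0.535 without (SD over the 3 transfections), a ratio of 20.6. The fitted difference was 3.93 ± 0.07 (SE of the fit, adjusted p = 2.01e-05), the 6th largest rise of all genes tested. Among the 11816 genes, Edn1 ranked between 1563 and 1767 by level with TGF-β2 and between 9892 and 10612 without it.

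The protease gene Ece1 (chr4:137418152-137521144, mm9) went the other way. Its levels were 59.4 FPKM with the miR-31 inhibitor and TGF-β2, 64.4 with the miR-27 inhibitor and TGF-β2 and 60.0 with the negative control and TGF-β2, against 91.0, 84.8 and 80.0 FPKM without TGF-β2. Every library with TGF-β2 was below every library without it, by 0.47 ± 0.06 on the fitted log2 scale (adjusted p = 0.00309). The level of Edn1 relative to Ece1 was between 0.835 and 0.929 with TGF-β2 and between 0.0250 and 0.0335 without. Ece2, a related protease gene and the one other gene of the endothelin list that met the filter, fell by 0.16 (adjusted p = 0.0271). The receptor gene Ednrb (chr14:104213842-104243390, mm9), whose product mediates endothelin clearance and nitric oxide release in endothelium, was at or under 0.0294 FPKM in all 6 libraries. Ednra, the receptor through which smooth muscle contracts, was at or under 0.00711 FPKM.

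The proximal sequence of Edn1 is shown because this gene had the largest rise of the 10, beside that of Nppb, which had the largest fall. Each is 300 bases from RefSeq, from 250 before to 50 after the annotated start, in GRCm38.p6 on the plus strand. Capitals mark 4 motifs on either strand, which do not overlap here: AGATAA for GATA factors, TGACTNA for AP-1, CAGAC for Smads and GGAATG for TEAD factors.
Edn1 promoter (chr13:42301226-42301525): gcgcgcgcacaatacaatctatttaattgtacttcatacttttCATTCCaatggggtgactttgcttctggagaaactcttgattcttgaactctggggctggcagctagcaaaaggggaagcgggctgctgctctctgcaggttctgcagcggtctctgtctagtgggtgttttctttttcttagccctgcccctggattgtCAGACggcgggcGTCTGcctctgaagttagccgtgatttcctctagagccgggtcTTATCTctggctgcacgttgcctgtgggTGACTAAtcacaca
Nppb promoter (chr4:147985650-147985949): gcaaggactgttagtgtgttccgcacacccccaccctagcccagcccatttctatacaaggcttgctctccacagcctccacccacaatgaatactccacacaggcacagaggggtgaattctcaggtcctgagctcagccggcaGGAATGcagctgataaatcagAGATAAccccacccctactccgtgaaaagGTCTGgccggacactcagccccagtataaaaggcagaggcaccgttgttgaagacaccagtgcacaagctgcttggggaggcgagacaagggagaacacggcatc
In the human EDN1 gene, a GATA site and an AP-1 site of the proximal promoter are known to act together. The mouse window held AGATAA on the minus strand and TGACTAA on the plus strand 9 and 37 bases after the annotated start, 2 CAGAC matches and 1 GGAATG match. In the rat Nppb gene, GATA sites and an M-CAT element bound by TEAD factors are known. The mouse window held 1 match each for GATA, TEAD and Smad. Over all 32851 promoter windows, 11.2% held the GATA letters, 13.9% the AP-1 letters, 49.6% the Smad letters and 14.7% the TEAD letters. Over the 9920 windows of tested genes these shares were 6.05%, 9.75%, 46.4% and 12.1%. The GATA, Smad and TEAD letters were thus in both the gene that rose most and the gene that fell most. Windows were found for 8 of the 10 genes, Nos3 and Ptgis having none in the table used. Among these, AGATAA and GGAATG were in those of Edn1 and Nppb only, and TGACTNA in that of Edn1 only. The Smad letters CAGAC were in at least 1 window of each of these genes except Ace, so they do not set Edn1 and Nppb apart.

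Nos3 (chr5:23870637-23897961, mm9) was the most highly expressed of the 10 genes in every library. With TGF-β2 it stood at 74.2 FPKM with the miR-31 inhibitor, 81.05 with the miR-27 inhibitor and 76.8 with the negative control, against 185, 176 and 186 FPKM in the same transfections without TGF-β2. The groups did not overlap, and the level with TGF-β2 was 42.4% of that without. The fitted difference was -1.23 ± 0.05 (adjusted p = 1.46e-04), the 161st largest fall of all genes tested. Its listed place is shared with Atg9b and AK138592, so reads of overlapping transcripts may be divided between them: Atg9b stood at 5.54 to 6.24 FPKM with TGF-β2 and 8.45 to 9.14 without. Edn1 relative to Nos3 was 0.744 with the miR-31 inhibitor and TGF-β2, 0.668 with the miR-27 inhibitor and TGF-β2 and 0.652 with the negative control and TGF-β2, against 0.0165, 0.0153 and 0.0107 without TGF-β2.

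Genes around nitric oxide synthesis moved in both directions. Of 23 on the list, 17 met the filter, 10 of them fell and 4 rose, with a median difference of -0.246 beside -0.0184 over all genes tested. Klf2, a flow-responsive factor known to activate Nos3, stood at 7.71 to 11.1 FPKM with TGF-β2 and 14.4 to 17.3 without (-0.74 ± 0.08, adjusted p = 0.00228). Klf4, a related factor, stood at 3.04 to 4.92 FPKM with TGF-β2 and 5.23 to 6.96 without (-0.64, adjusted p = 0.0069). Ass1, which encodes an enzyme that regenerates the substrate arginine, rose by 0.82 (adjusted p = 2.24e-04) to a mean of 98.3 FPKM with TGF-β2, against 55.3 without. Ddah1, whose product breaks down an endogenous inhibitor of the synthase, rose by 0.61 to 5.71 FPKM with TGF-β2, against 3.41 without. The inducible synthase gene Nos2 lay under the filter, at 0.366 to 0.646 FPKM with TGF-β2 and 0.697 to 1.15 without. Downstream, of 11 genes of the cyclic GMP pathway 5 met the filter, 2 rose and 2 fell (median 0.150). The kinase genes Prkg2 (1.00) and Prkg1 (0.36) rose, and their substrate genes Mrvi1 (-0.72) and Vasp (-0.48) fell. Of these, Prkg1 and Mrvi1 lay near the filter. Prkg1 stood at 1.36 to 1.55 FPKM with TGF-β2 and 0.779 to 0.984 without, so it met the filter only through its libraries with TGF-β2. Mrvi1 stood at 0.770 to 1.07 FPKM with TGF-β2 and 1.94 to 2.30 without.

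**Figure D2:**
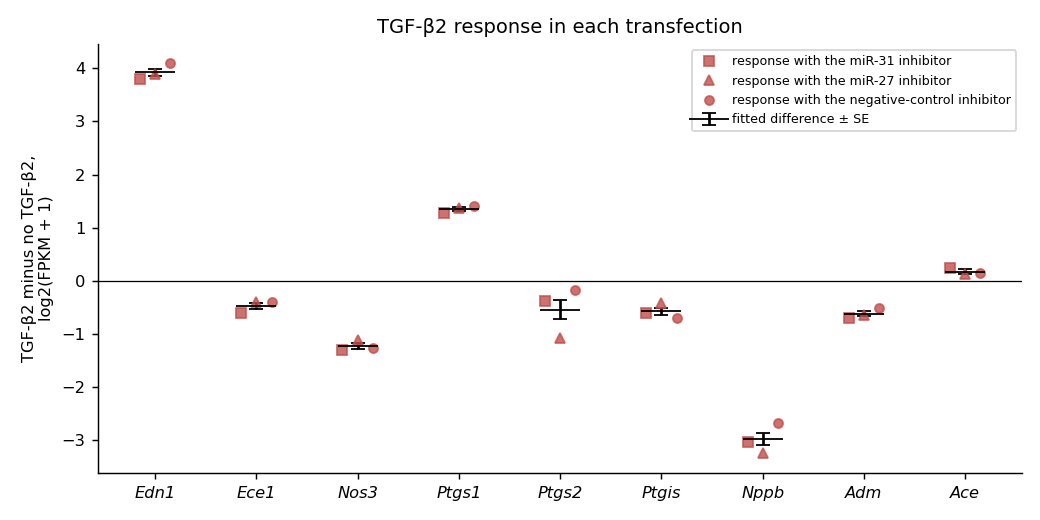
TGF-β2 minus no TGF-β2 on the log2(FPKM + 1) scale for the 9 genes tested, with 1 marker per transfection and the fitted difference ± SE as a bar. The responses of Edn1 lie between 3.79 and 4.09, those of Nppb between -3.25 and -2.68, and those of Ptgs2 spread from -1.08 to -0.17.

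Of the cyclooxygenase genes, Ptgs1 rose and Ptgs2 did not pass. Ptgs1 (chr2:36085946-36107789, mm9) encodes the constitutive enzyme. It stood at 6.99 FPKM with the miR-31 inhibitor and TGF-β2, 8.37 with the miR-27 inhibitor and TGF-β2 and 9.002 with the negative control and TGF-β2, against 2.29, 2.62 and 2.78 FPKM without TGF-β2. The groups did not overlap, the ratio of the means was 3.16, and the fitted difference was 1.35 ± 0.05 (adjusted p = 7.53e-05). Ptgs2 (chr1:151947254-151955142, mm9) encodes the inducible enzyme, and its levels were 6.20, 3.83 and 4.20 FPKM with TGF-β2 in the miR-31, miR-27 and negative-control transfections, against 8.35, 9.17 and 4.85 FPKM without TGF-β2. It was lower with TGF-β2 in each transfection, but by very different amounts (-0.38, -1.08 and -0.17), and the groups overlapped. Ptgs2 did not pass (-0.54 ± 0.18, adjusted p = 0.0581). Without the negative-control libraries the difference was -0.73 and the adjusted p 0.0498, and without the miR-27 inhibitor libraries they were -0.27 and 0.0604. Whether Ptgs1 and Ptgs2 differ in response was not tested, and the level of Ptgs1 relative to Ptgs2 was between 1.13 and 2.19 with TGF-β2 and between 0.275 and 0.572 without.

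The prostacyclin synthase gene Ptgis (chr2:167028696-167066037, mm9) stood at 1.95, 2.105 and 1.92 FPKM with TGF-β2 in the miR-31, miR-27 and negative-control transfections, against 3.49, 3.17 and 3.74 FPKM without. All 3 libraries with TGF-β2 lay below all 3 without, and their mean was 57.5% of that without (-0.58 ± 0.06, adjusted p = 0.00218). Of 21 other genes of prostanoid synthesis, receptors and breakdown, 8 met the filter, 3 fell and 1 rose (median -0.0526). Ptgds, which encodes a synthase of prostaglandin D, had the largest difference, at 1.39, 0.893 and 0.765 FPKM with TGF-β2 in the miR-31, miR-27 and negative-control transfections, against 12.3, 13.2 and 14.2 FPKM without (-2.83 ± 0.12, adjusted p = 1.46e-04). Alox5ap, a partner of the leukotriene-forming lipoxygenase, fell by 0.87 and the prostaglandin E receptor gene Ptger4 by 0.33. The exporter gene Abcc4 rose by 0.28 (adjusted p = 0.0177), although its groups overlapped. The prostacyclin receptor gene Ptgir was at or under 0.110 FPKM in every library.

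Nppb (chr4:147359898-147361314, mm9) encodes the precursor of B-type natriuretic peptide, which dilates vessels through cyclic GMP and is best known as a product of stretched heart muscle. It stood at 1.62 FPKM with the miR-31 inhibitor and TGF-β2, 1.20 with the miR-27 inhibitor and TGF-β2 and 1.64 with the negative control and TGF-β2, against 20.4, 19.9 and 15.9 FPKM without TGF-β2. The groups were far apart, with the level with TGF-β2 at 7.93% of that without. The fitted difference was -2.99 ± 0.11 (adjusted p = 9.64e-05), the 16th largest fall of all genes tested. Since its level with TGF-β2 is close to the pseudocount, this scale understates the change, and with a pseudocount of 0.1 the difference was -3.58. Of 7 other natriuretic genes 4 met the filter, 3 of them rose and none fell (median 0.443). The clearance receptor gene Npr3 stood at 2.93 to 3.14 FPKM with TGF-β2 and 0.557 to 0.895 without (1.22 ± 0.06, adjusted p = 2.13e-04). It met the filter only through its libraries with TGF-β2, so its call and the count and median of this list rest partly on that filter. The signalling receptor gene Npr1 stood at 1.95 to 1.97 FPKM with TGF-β2 and 1.33 to 1.53 without (0.27, adjusted p = 0.00799). Furin, a protease that cuts many precursors, rose by 0.62, and the receptor gene Npr2 did not pass (-0.03, adjusted p = 0.609).

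Adm (chr7:117771183-117773333, mm9) encodes adrenomedullin, a vasodilator peptide that also tightens the endothelial barrier. Its levels were 24.0 FPKM with the miR-31 inhibitor and TGF-β2, 27.2 with the miR-27 inhibitor and TGF-β2 and 18.4 with the negative control and TGF-β2, against 39.7, 42.9 and 26.6 FPKM without TGF-β2. The groups overlapped, because the negative-control libraries were the lowest in both states, but within each transfection Adm was lower with TGF-β2, by 0.71, 0.64 and 0.50. The fitted difference was -0.62 ± 0.05 (adjusted p = 0.00104). Both parts of its receptor fell: Calcrl, the receptor proper, stood at 2.75 to 3.07 FPKM with TGF-β2 and 6.26 to 7.06 without (-0.98 ± 0.06, adjusted p = 3.45e-04). Ramp2, the partner that directs it to adrenomedullin, stood at 51.4 to 58.3 FPKM with TGF-β2 and 97.5 to 106 without (-0.88, adjusted p = 4.27e-04). Cxcr7, the older symbol for a scavenging receptor that also takes up adrenomedullin, fell by 1.39, and Apln, the precursor of the vasodilator peptide apelin, fell by 0.78 to a mean of 280 FPKM with TGF-β2, against 480 without. Of the 6 genes that met the filter, among 14 of this list found in the table, 4 fell and 1 rose (median -0.831). The 1 that rose was Pam, by 0.56. Of all genes tested, 27.5% were called lower and 22.7% higher. The list also holds genes outside the adrenomedullin family, such as Apln.

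Ace (chr11:105826922-105851261, mm9) encodes the enzyme that makes angiotensin II and inactivates bradykinin. It stood at 3.46, 3.17 and 2.50 FPKM with TGF-β2 in the miR-31, miR-27 and negative-control transfections, against 2.75, 2.84 and 2.16 FPKM without. Its listed place overlaps that of AK016887. The groups overlapped, and the difference was the smallest in size of the 9 (0.17 ± 0.05, adjusted p = 0.0322). This call was lost without the libraries of any 1 transfection, with adjusted p between 0.0615 and 0.115. Of 18 other genes of the angiotensin and kinin systems 5 met the filter, 3 rose and 1 fell (median 0.271). The peptidase genes Cpd (1.02 ± 0.06, adjusted p = 2.75e-04) and Prcp (0.96, adjusted p = 2.28e-04) rose, to means of 115 and 48.7 FPKM with TGF-β2, against 56.5 and 24.5 without. The prorenin receptor gene Atp6ap2 rose by 0.27, and the aminopeptidase gene Lnpep did not pass (-0.17, adjusted p = 0.122). The angiotensinogen gene Agt and the receptor genes Agtr1a, Agtr1b and Agtr2 were at or under 0.0133 FPKM, and Ren1 was listed at 0.

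**Figure D3:**
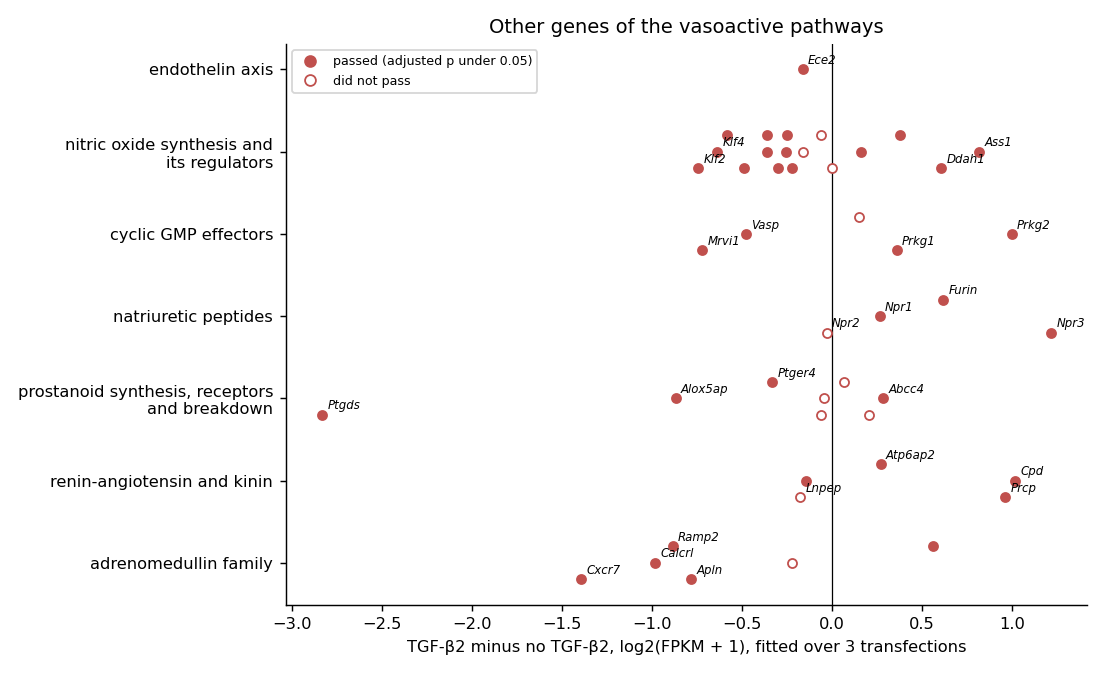
Fitted TGF-β2 minus no TGF-β2 on the log2(FPKM + 1) scale for genes of 7 pathway lists that met the filter, filled where they passed and labelled by name where named by rule. The adrenomedullin receptor genes Cxcr7, Calcrl and Ramp2 lie at -1.39 to -0.88, Npr3 lies at 1.22, and Ptgds lies at -2.83.

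With the miR-31 inhibitor library with TGF-β2 left out, 7 of the 8 calls held. Edn1 was then at 3.99, Ptgs1 at 1.39, Nos3 at -1.19, Nppb at -2.97, Adm at -0.57, Ptgis at -0.56 and Ece1 at -0.40. Ace was at 0.13, with an adjusted p of 0.0615.

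The order of the genes by level differed between the states. With TGF-β2 it ran Nos3, Ece1, Edn1, Adm, Ptgs1, Ptgs2, Ace, Ptgis, Nppb and Ednrb, and no neighbours in it overlapped over the 3 transfections. Without TGF-β2 it ran Nos3, Ece1, Adm, Nppb, Ptgs2, Ptgis, then Ace, Edn1 and Ptgs1 with overlapping ranges, then Ednrb. Edn1 thus came directly after Nos3 and Ece1 with TGF-β2, at a mean of 53.1 FPKM, and stood among the lowest without it, at 2.58.

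Genes whose pattern over the 6 libraries was closest were found by the root mean square distance of log2(FPKM + 1) values, each centred on the gene's mean. Closest to Edn1 were the matrix proteoglycan gene Bgn (0.0696), the matricellular gene Ctgf (0.108) and Vwf (0.163), which encodes a clotting factor stored in endothelial cells. Closest to Nos3 were the intermediate filament gene Vim (0.0399), Apob48r (0.0517) and Arhgef7 (0.0533). Among the closest to Nppb were Stfa2 (0.140), which was listed at 0 in the libraries with TGF-β2 and has near-identical copies, and Ppl (0.172). With a difference between the TGF-β2 states in all of these, the distances mostly compare the size of that difference.

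None of the 9 genes tested passed for the miR-31 inhibitor or for the miR-27 inhibitor against the negative control. Of all genes tested, 0.0339% passed for the miR-31 inhibitor and 0.00846% for the miR-27 inhibitor, so very few changes of any gene could be called in this design. At an unadjusted p under 0.05, limma gave 5 of the 9 for the miR-31 inhibitor, beside 2135 of all 11816 genes tested. For the miR-27 inhibitor it gave 2 of the 9, beside 1470 of the 11816. Both comparisons use the same negative-control libraries.

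Adm had the largest differences that held in every pair of libraries. It was higher than the negative control by 0.36 with TGF-β2 and 0.56 without it for the miR-31 inhibitor, and by 0.53 with TGF-β2 and 0.67 without it for the miR-27 inhibitor. The fitted differences were 0.46 ± 0.07 (adjusted p = 0.211) and 0.60 ± 0.07 (adjusted p = 0.295). Ace was above the negative control in all 4 pairs as well, by 0.30 ± 0.06 (adjusted p = 0.227) and 0.27 ± 0.06 (adjusted p = 0.295). For Edn1, the gene with the miR-31 seed match, the differences were 0.14 with TGF-β2 and 0.43 without it for the miR-31 inhibitor (fitted 0.29 ± 0.08, adjusted p = 0.236). For the miR-27 inhibitor, whose seed has no match in its 3′ UTR, they were 0.11 with TGF-β2 and 0.30 without it (0.21 ± 0.08, adjusted p = 0.408).

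Ptgs1 was lower with the miR-31 inhibitor in both states (-0.32 with TGF-β2 and -0.20 without it, fitted -0.26 ± 0.06, adjusted p = 0.227) and lay at -0.08 ± 0.06 with the miR-27 inhibitor. Ptgs2 stood 0.57 ± 0.22 above the negative control with the miR-31 inhibitor (adjusted p = 0.276) and 0.34 ± 0.22 with the miR-27 inhibitor (adjusted p = 0.542). Its pairs for the miR-27 inhibitor differed in sign, with -0.11 with TGF-β2 and 0.80 without it. Nos3 lay at -0.03 ± 0.07 for the miR-31 inhibitor and at 0.00064 ± 0.07 for the miR-27 inhibitor. The fitted differences of Ece1, Ptgis and Nppb lay between -0.05 and 0.16 in both comparisons, but single pairs spread more. For Nppb they were -0.26 with TGF-β2 and 0.30 without it for the miR-27 inhibitor. For the miR-31 inhibitor those of Nppb were -0.007 with TGF-β2 and 0.33 without it. Ptgis lay at 0.09 with TGF-β2 and -0.18 without it for the miR-27 inhibitor. With the untreated miR-31 inhibitor library left out, the miR-31 difference was 0.39 for Adm, 0.36 for Ace and -0.32 for Ptgs1. It then rested on 1 library, the one with TGF-β2 that stood apart in the median of the stress genes. With that TGF-β2 library left out instead, the difference was 0.53 for Adm, 0.24 for Ace and -0.21 for Ptgs1. Between the miR-31 and miR-27 inhibitors themselves none of the 9 passed, beside 0.0169% of all genes tested. At an unadjusted limma p under 0.05 there was 1 of the 9 (Ptgs1, -0.18), beside 403 of all 11816 genes tested. Whether the TGF-β2 response of any gene depends on the inhibitor was not tested, because each condition is 1 library.

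**Figure D4:**
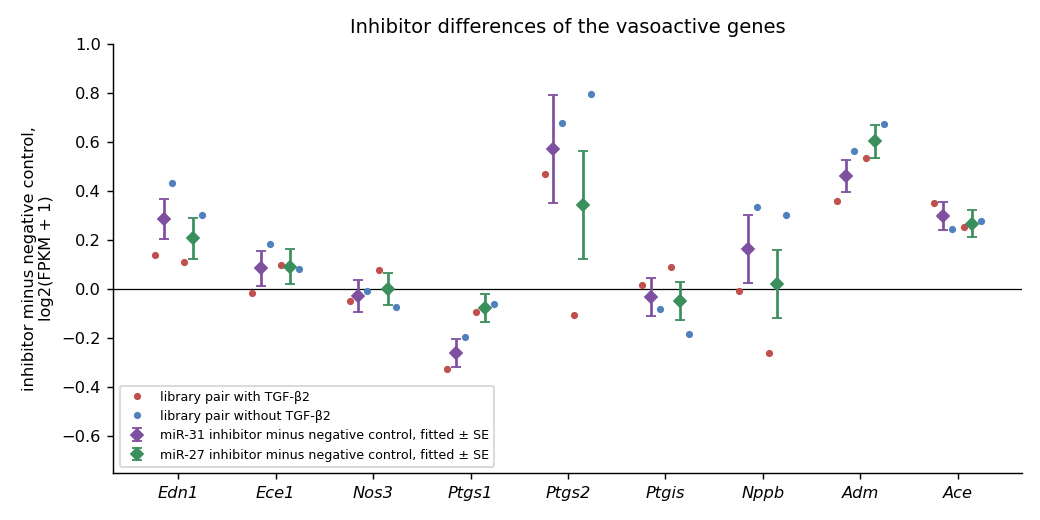
Inhibitor minus negative control on the log2(FPKM + 1) scale for the 9 genes tested, as fitted differences ± SE (diamonds, miR-31 inhibitor left and miR-27 inhibitor right of each gene) with the library pairs with TGF-β2 in red and without it in blue. Adm, Ace and Edn1 lie above 0 in all 4 pairs, while those of Nos3 run from -0.07 to 0.08.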

How the data were processed

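The authors deposited 1 table of FPKM values with 1 column per library. They list TopHat2 2.0.9, Cufflinks 2.1.1 and mm9 as tools and build, per the submitters' processing notes. Annotation, strand use and filters are not given in the sources used here. Libraries were directional and made after removing ribosomal RNA, per the labels' protocols. FPKM were used as deposited. Listed starts count from 0, since for 5685 gene names the end minus the start equals the RefSeq gene length (384 for a start counted from 1), and starts are printed counted from 1.

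Differences were tested in R 4.3.3 with limma 3.58.1 (2-sided), on log2(FPKM + 1) of the 11816 genes averaging 1 FPKM or more, in a model additive in inhibitor and TGF-β2. Adjusted p-values are Benjamini-Hochberg over these genes. The fit had 2 residual degrees of freedom and a prior of 2.87, so its spread holds noise and any dependence of the response on the inhibitor together. It was tested on simulated data. Genes named were the 10 members, up to 4 genes per list with the largest TGF-β2 difference, 7 receptor and synthase genes, and the 3 genes closest to Edn1, Nos3 and Nppb. Of those closest to Nppb, 1 is not reported here. Markers, Agt, its receptor genes, Ren1, Pam and genes at an overlapping place (Atg9b, AK138592, AK016887) lie outside that rule. The members and lists were chosen with earlier results of these data known. Alternatives were other pseudocounts and filters, rescaling, other moderation, a fit without the inhibitor term, and leaving out libraries.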

Additional observations from a re-analysis of the deposited data

Results flagged for a closer look

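The median of the 15 stress genes differed in sign between transfections. The median TGF-β2 response on the log2(FPKM + 1) scale was 1.15 with the miR-31 inhibitor, -0.516 with the miR-27 inhibitor and -0.693 with the negative control. Singly, 7 of the 15 had a response above 0 with the miR-31 inhibitor and below 0 in the other two transfections, 5 were above 0 in all 3 and 3 below 0 in all 3. The natriuretic receptor gene Npr2 responded by -0.087 with the miR-31 inhibitor, -0.010 with the miR-27 inhibitor and 0.012 with the negative control, all close to 0. Neither difference between transfections was tested, because each condition is 1 library.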

How the results depend on the processing

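The TGF-β2 calls of Edn1, Ece1, Nos3, Nppb, Ptgs1, Ptgis and Adm held under every alternative that could be computed for them, 10 distinct fits each and 9 for Ptgis. Leaving out either or both libraries of a transfection gives the same fit, so 3 of these are leave-out fits. Ace kept its call in 4 of 9 and Ptgs2 stayed uncalled in 9 of 10. The inhibitor calls rest on 2 residual degrees of freedom, so a gene that did not pass is not shown to be without a difference. Of all genes, 5926 passed for TGF-β2. Without both negative-control libraries 3566 did, and without both miR-27 libraries 3917, and leaving out 1 library gave 3566 to 6087. For the miR-31 inhibitor 4 passed, but 0 with no filter on low values, 13 with trend and robust moderation, and 3 to 1137 with 1 library left out. For the miR-27 inhibitor 1 passed, 0 with no filter, and 1 to 12 with 1 library left out. Between the inhibitors 2 passed, 0 with no filter, 1 with a filter at 5 FPKM, and 2 to 208 with 1 library left out.

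Some small inhibitor differences changed sign. For the miR-27 inhibitor, Nos3 was at -0.0066 after rescaling, and Nppb at -0.050 and -0.0097 with pseudocounts of 0.1 and 0.5. With 1 library left out, the miR-31 difference ran from -0.018 to 0.19 for Ece1, -0.088 to 0.029 for Nos3, -0.063 to 0.39 for Nppb and -0.12 to 0.062 for Ptgis. The miR-27 difference ran from -0.085 to 0.086 for Nos3, -0.21 to 0.25 for Nppb, -0.056 to 0.75 for Ptgs2 and -0.16 to 0.065 for Ptgis. Between the inhibitors it ran from -0.022 to 0.18 for Edn1, -0.11 to 0.097 for Ece1, -0.12 to 0.055 for Nos3, -0.055 to 0.34 for Nppb, -0.17 to 0.63 for Ptgs2, -0.096 to 0.13 for Ptgis and -0.028 to 0.090 for Ace. The cause was not tested. The labels number no replicates, and the main fit already pairs the TGF-β2 states by transfection. Without that block 5450 genes passed for TGF-β2, and Ace did not (adjusted p 0.248).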

Other observations

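A few genes of these pathways lay under the filter, were not tested, and were chosen after their values were seen. Bdkrb2, the bradykinin receptor gene of the endothelium, was listed at 1.08, 0.474 and 0.576 FPKM with TGF-β2 in the miR-31, miR-27 and negative-control transfections, against 0.00705, 0.00738 and 0.00635 FPKM without. Ramp3, another receptor partner for adrenomedullin, was listed at 0.0227 to 0.0537 FPKM with TGF-β2 and 0.422 to 0.518 without. Tbxas1, the thromboxane synthase gene, was listed at 0.391 to 0.665 FPKM with TGF-β2 and 0.146 to 0.191 without.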
